A study of Mus musculus with 2 samples.

Results

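The Msx genes are the 3 mouse members of the muscle segment homeobox family, Msx1, Msx2 and Msx3. They were taken as the rows of the gene and transcript tables whose Ensembl identifiers belong to those symbols, which gave 3 of 42462 named genes and all 6 of their annotated transcripts. The tissue was the embryonic facial prominence, the swellings that form the face, from mouse strain B6NCrl at embryonic day 10.5. Sequencing covered total RNA above 200 nt in 1 group of 2 pools, replicate 1 from 69 embryos and replicate 2 from 51 embryos, male and female together. The labels named no treatment, mutant allele or control, and the embryos were healthy, so the values describe levels in this tissue and how far the pools differed. Libraries started from 10 ng with spike-in controls, and genes received 40059134 counts in replicate 1 and 39531691 in replicate 2.

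Msx proteins are homeodomain transcription factors that act mainly as repressors. Their genes are well known targets of bone morphogenetic protein (BMP) signaling. Msx1 and Msx2 are known from mesenchyme and epithelium that signal to each other, including the facial prominences, tooth buds and limb buds. Loss of Msx1 in mice gives cleft palate and arrested teeth, and Msx2 acts in the skull, teeth and hair. Msx3 is known from the dorsal neural tube of the mouse embryo.

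The homeobox, which encodes the DNA-binding homeodomain, is the part the genes share, so it is where reads of the 3 genes could be confused. The sequences are from the GENCODE M21 transcripts on GRCm38, 5′ to 3′, are shown for Msx2 and Msx3, the members whose pools stood apart most, and capitals mark bases that differ between them. Each box spans 180 bases of exon 2 on the minus strand, at chr13:53468370-53468549 in Msx2 and at chr7:140047917-140048096 in Msx3.
Msx2: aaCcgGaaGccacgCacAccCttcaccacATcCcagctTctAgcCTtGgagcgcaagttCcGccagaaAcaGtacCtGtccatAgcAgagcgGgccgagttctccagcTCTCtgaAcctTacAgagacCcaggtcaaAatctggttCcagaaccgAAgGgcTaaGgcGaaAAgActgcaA
Msx3: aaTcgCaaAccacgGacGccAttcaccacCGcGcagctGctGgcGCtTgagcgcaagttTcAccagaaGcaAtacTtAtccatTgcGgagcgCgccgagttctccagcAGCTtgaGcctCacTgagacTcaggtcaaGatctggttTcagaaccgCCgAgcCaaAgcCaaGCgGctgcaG

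Msx2 and Msx3 had the same base at 137 of the 180 positions (76.1%). Most differences, 33 of 43, fell on the last base of a codon. The longest exact run that these genes shared over their whole transcripts was 15 bases. No window of 100 bases from an Msx transcript occurred in a transcript of any other gene. At 50 bases, 15 of 3229 windows of Msx2 occurred elsewhere, and 0 of Msx1 or Msx3. Gene-level counts of the family were whole numbers in both pools.

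Msx1 stood far above its relatives in the facial prominence, Msx2 was intermediate and Msx3 was low. Levels are given as TPM, the usual unit of transcript abundance corrected for transcript length and library size. Msx1 (ENSMUSG00000048450, chromosome 5, 37820485 to 37824583) had 281.28 TPM in replicate 1 and 302.63 in replicate 2, a mean of 292 ± 15.1 TPM (SD, n = 2 pools). Msx2 (ENSMUSG00000021469, chromosome 13, 53466884 to 53473074) had 34.94 and 48.15 TPM, a mean of 41.5 ± 9.34. Msx3 (ENSMUSG00000025469, chromosome 7, 140046157 to 140049089) had 2.17 and 8.25 TPM, a mean of 5.21 ± 4.30. The order of the genes was the same in both pools and no value of one gene overlapped another's. In bulk tissue, fewer cells that use a gene and less of its RNA in each cell cannot be told apart.

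**Figure D1:**
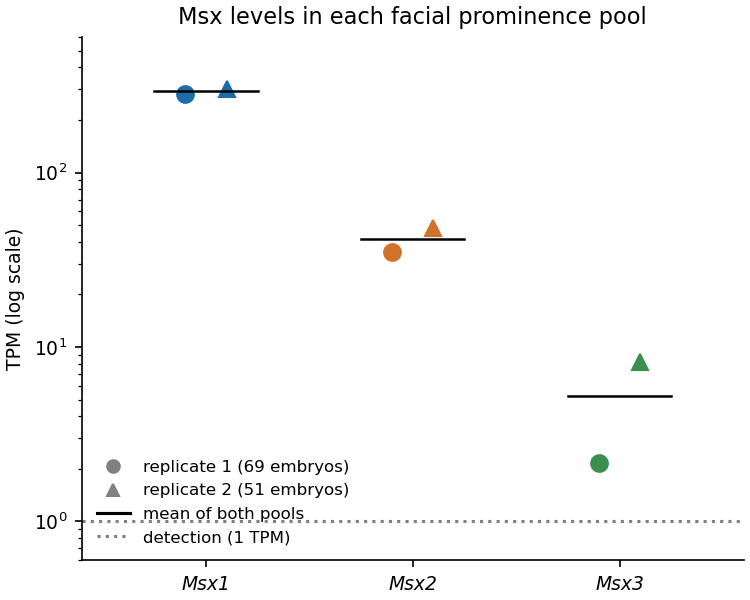
TPM of Msx1, Msx2 and Msx3 on a log axis, with a circle for replicate 1, a triangle for replicate 2 and a bar for their mean. The pools lie close together for Msx1 (281.28 and 302.63 TPM) and far apart for Msx3 (2.17 and 8.25 TPM).

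All 3 genes passed the detection threshold of 1 TPM in both pools, which 58.2% of 21474 protein coding genes also passed. By mean TPM, 97.7% of protein coding genes lay below Msx1, 81.8% below Msx2 and 53.5% below Msx3. Among the detected ones alone the shares were 96.0%, 68.7% and 20.0%. Msx3 therefore sat in the lower part of the detected genes. The counts behind these levels were 13669 and 14621 for Msx1, 2171 and 2977 for Msx2, and 118 and 443 for Msx3, in replicates 1 and 2.

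Each pair of Msx genes differed by more than the spread of genes of like level. That spread was taken on log2(TPM + 0.1) from the 200 genes closest in level to each member, and it gave the 95% intervals that follow. Msx1 exceeded Msx2 8.03-fold in replicate 1 and 6.27-fold in replicate 2, a log2 difference of 2.83 (2.66 to 2.99). Msx1 exceeded Msx3 124-fold and 36.3-fold (log2 difference 6.07, 5.68 to 6.46). Msx2 exceeded Msx3 15.4-fold and 5.78-fold (3.24, 2.83 to 3.65). In all 3 pairs both pools lay outside the interval, since the pair's own spread was wider than that of like genes, and the interval understates how far the pools differed.

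Msx1 made up most of the family's RNA. It held 88.3% of the summed Msx TPM in replicate 1 and 84.3% in replicate 2, or 86.3% ± 2.87. Msx2 held 11.0% and 13.4%, and Msx3 0.682% and 2.30%. The summed level of the family was 318.39 TPM in replicate 1 and 359.03 in replicate 2. Each member had the larger TPM in replicate 2, and Msx1 added the most to the difference of the sums.

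Msx1 was the most abundant of 207 measured homeobox genes in both pools. The list was written from general knowledge of the family, with earlier results of these data known. It held 209 symbols, of which 115 were detected (55.6% of those measured, against 58.2% of protein coding genes). Msx1 took 12.3% of the summed homeobox TPM in replicate 1 and 13.3% in replicate 2. The next genes were the mesenchymal regulator Prrx1 at 107 ± 1.08 TPM, Tgif2 at 94.94 and 95.16 TPM and Tgif1 at 94.83 and 92.13, the last 2 encoding repressors of TALE type. Only Msx1 and Prrx1 reached a mean of 100 TPM, and the median of the list was 1.77 TPM.

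Msx2 ranked 16th and Msx3 75th in that list, each among genes of similar level. Just above Msx2 were Dlx1 (48.6 ± 14.3 TPM), Isl1 (45.5 ± 5.90) and Barx1 (42.6 ± 8.88), and just below it Pitx1 (40.8 ± 5.42). The gap between Msx2 and each of these was smaller than the SD of Msx2 itself. Around Msx3 stood Zhx2 (5.50 ± 0.0919), Irx2 (5.46 ± 2.02) and Zfhx2 (5.22 ± 0.403) above it and Pou2f2 (4.63 ± 0.636), Dlx6 (4.53 ± 0.629) and Hhex (4.46 ± 0.184) below it. In replicate 2 alone Msx3, at 8.25 TPM, lay above all 6 of these neighbours, and in replicate 1, at 2.17 TPM, below all 6.

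**Figure D2:**
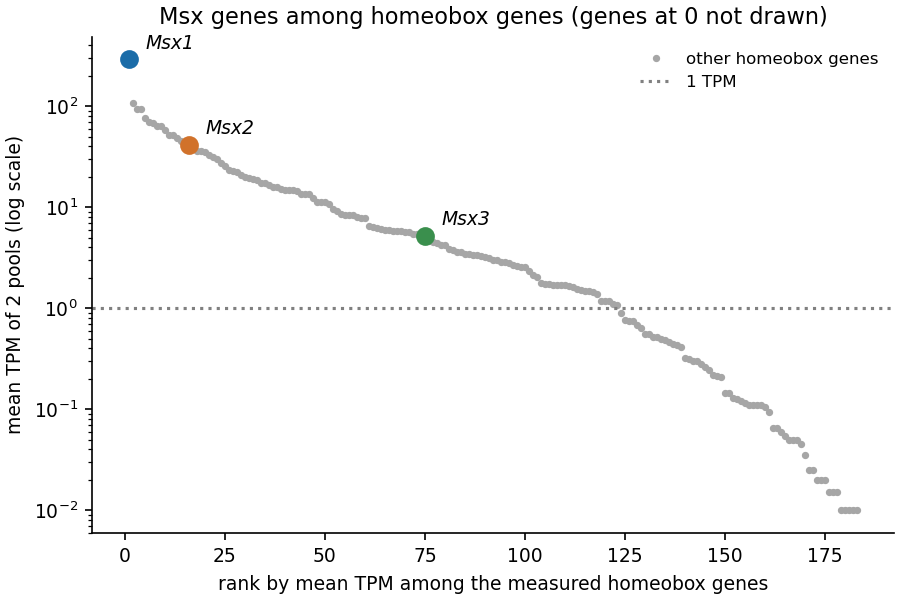
Mean TPM of 2 pools on a log axis against rank for the homeobox genes with any TPM, with the Msx genes in colour and 1 TPM dotted. Msx1 leads at 292 TPM, a clear step above Prrx1 at 107, while Msx2 (rank 16) and Msx3 (rank 75) lie on the slope.

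The family's transcripts were dominated by the spliced coding form. Each Msx gene has 2 annotated transcripts, and every coding one has 2 exons with the homeobox in the second. Msx1-201, of 1935 bases and 909 coding bases, had 268.75 TPM in replicate 1 and 287.57 in replicate 2. Msx2-201, of 2453 bases and 801 coding bases, had 34.56 and 47.72 TPM and held 99.0% ± 0.141 of its gene. In both genes the other transcript is a single exon that reads past the end of exon 1 into the intron and holds no homeobox.

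**Figure D3:**
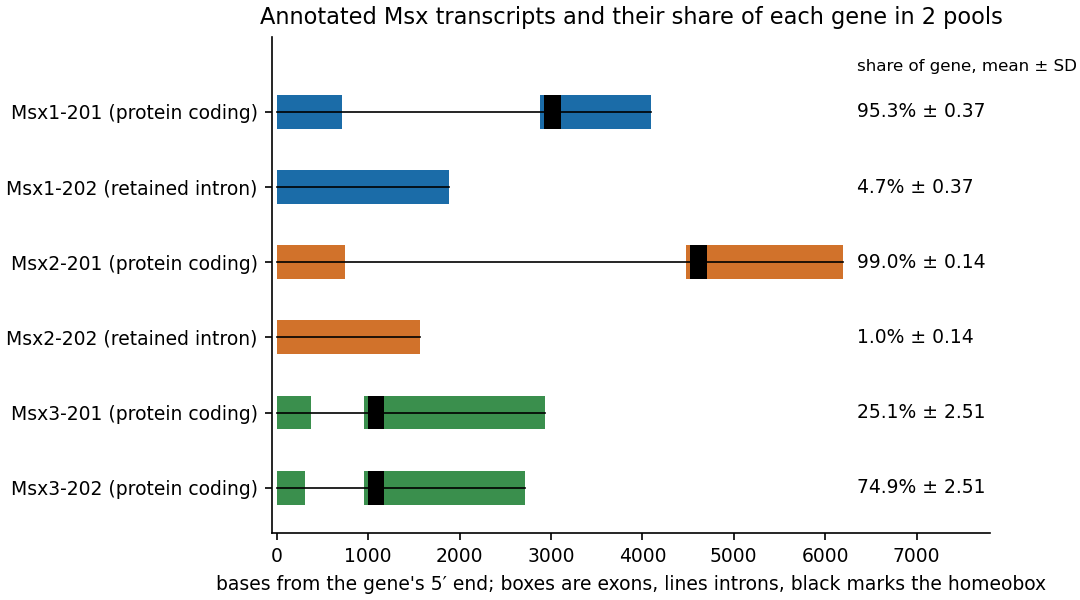
The 6 annotated Msx transcripts drawn to scale from the 5′ end of each gene, with exons as boxes, introns as lines and the homeobox in black, beside the share of the gene's TPM (mean ± SD, n = 2 pools). The coding forms Msx1-201 and Msx2-201 hold 95.3% and 99.0% of their genes, while Msx3 is split between 2 coding forms, of which Msx3-201 reads the homeobox in another frame.

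The difference between the spliced and the intron-retaining forms lies at the end of exon 1, shown here as the last 20 bases of exon 1 in lower case and the 20 bases that follow in capitals (minus strand, GRCm38). The exon ends at base 37823865 of chromosome 5 in Msx1 and at base 53472332 of chromosome 13 in Msx2.
Msx1-201: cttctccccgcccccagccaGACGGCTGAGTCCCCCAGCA
Msx1-202: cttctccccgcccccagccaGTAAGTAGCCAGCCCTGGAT
Msx2-201: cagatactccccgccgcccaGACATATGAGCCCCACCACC
Msx2-202: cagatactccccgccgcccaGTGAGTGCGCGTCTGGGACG

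In the spliced forms the capitals come from exon 2, and in the retained forms from the intron, which opens with the donor bases GT. Msx1-202 takes in 1162 of the 2164 intron bases. It had 12.52 TPM in replicate 1 and 15.06 in replicate 2 and held 4.45% and 4.98% of Msx1. Msx2-202 takes in 826 of the 3738 intron bases. It had 0.38 and 0.43 TPM, or 1.10% and 0.90% of Msx2, from 14.97 and 16.83 estimated counts. The tables give no reads per base, so whether the reads of these forms ended where the annotation does was not tested.

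Msx3 was the only member with 2 annotated coding forms. Msx3-202, with 612 coding bases, had 1.59 TPM in replicate 1 and 6.32 in replicate 2 and held 73.1% and 76.65% of the gene. Msx3-201, with 438 coding bases, had 0.58 and 1.93 TPM and held 26.9% and 23.35%. The share of Msx3-202 was 74.9% ± 2.51, close in both pools although the level of the gene was not. Both forms were higher in replicate 2, Msx3-202 by 3.98-fold and Msx3-201 by 3.23-fold. The split is less certain than the gene's level: the posterior SD of the deposited counts was 13.8 counts for each form in replicate 1, where Msx3-201 had 35.0 estimated counts.

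The Msx3 forms differ in where exon 1 ends. Msx3-202 leaves exon 1 at base 140048786 of chromosome 7 and Msx3-201 runs on to base 140048718, and both join exon 2 at base 140048140. The 40-base stretches show the last 20 bases of exon 1 in lower case and the first 20 of exon 2 in capitals, and the last line is the 68 bases of exon 1 that Msx3-201 alone holds.
Msx3-202: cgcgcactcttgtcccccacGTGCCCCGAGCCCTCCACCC
Msx3-201: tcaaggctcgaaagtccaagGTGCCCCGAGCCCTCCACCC
Msx3-201 stretch: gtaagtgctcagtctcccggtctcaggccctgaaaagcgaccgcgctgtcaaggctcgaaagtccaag

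The stretch opens with gt, the donor at which Msx3-202 is spliced. It is not a multiple of 3 bases, so exon 2 is read in another frame in Msx3-201. By the annotation, the coding part of Msx3-201 ends 112 bases into the homeobox and reads those bases out of the homeodomain's frame. The forms also differ at the 3′ end, where Msx3-201 is 217 bases longer.

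No annotated gene overlapped an Msx gene, so no antisense partner could share their reads within this annotation. Genes within 50000 bases were examined on both sides. Those near Msx1 (Gm43763) and Msx2 (Gm2762 and Gm34022) were lincRNAs not analysed here. Near Msx3 lay Tubgcp2, a gene of the microtubule-nucleating complex, at 62.0 ± 0.368 TPM, and Zfp511, a zinc finger gene 5555 bases away, at 27.3 ± 0.962. Further off were Fuom (11.9 ± 2.20), Caly (0.78 ± 0.184) and Prap1 (0.07 TPM in replicate 1 and 0 in replicate 2). Log2 ratios between the pools were -0.02 for Tubgcp2, -0.10 for Zfp511, 0.37 for Fuom, 0.41 for Caly and 0.55 for Prap1, the last 2 from few counts, against -1.93 for Msx3.

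The pools differed in Msx3, less in Msx2 and little in Msx1. Counts were scaled by TMM factors, which take most genes to be equal between libraries, and ratios are replicate 1 over replicate 2 with 2 counts added to each side. Msx3 was 3.80-fold higher in replicate 2 (log2 ratio -1.93, counting interval -2.25 to -1.65). Msx2 had a log2 ratio of -0.49 (-0.57 to -0.41) and Msx1 one of -0.13 (-0.17 to -0.10), which are 1.41-fold and 1.10-fold with replicate 2 the larger. The 95% intervals are exact and cover counting error only, and 1 library on each side allows no test. Past the 1.5-fold limit chosen here was 1 of the 3 genes, Msx3, against 1.95% of 14035 genes (mean count 50 or more) past it in that direction and 4.64% in either. Among the 200 genes nearest to Msx3 in mean count, 7.5% were past 1.5-fold in either direction.

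Against genes of like abundance, Msx2 and Msx3 stood further apart than all those compared. Of the 200 genes nearest to Msx3 in mean count, 0 had a larger ratio in either direction, and their median absolute log2 ratio was 0.16. Among the 200 nearest to Msx2 the number was also 0 (median 0.07), and among those nearest to Msx1 it was 15 (median 0.04). Over all tested genes, 0.135% were higher in replicate 2 by as much as Msx3. The deposited intervals on TPM were also apart for Msx3, at 1.77 to 2.55 in replicate 1 and 7.32 to 8.84 in replicate 2. The biological coefficient of variation fitted by edgeR was 0.344 for Msx3, 0.0972 for Msx2 and 0.0491 for Msx1, against 0.101 over all genes. Its fitted trend for genes of like abundance was 0.158 at Msx3, 0.0550 at Msx2 and 0.0464 at Msx1.

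The direction held for Msx2 and Msx3 but not for Msx1 when another scaling was used. Scaling to the spike-in controls, which took 3.46% of all counts in replicate 1 and 3.94% in replicate 2, moved the median log2 ratio of all tested genes to 0.21, against 0.00 with TMM. Under it Msx1 had a log2 ratio of 0.08, Msx2 of -0.28 and Msx3 of -1.71. A change of scaling shifts all log2 ratios alike. The place of each gene relative to the median gene, below it for all 3, therefore could not change. Of all genes past 1.5-fold, 57.9% were higher in replicate 1 with TMM and 87.1% with spike-in scaling.

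**Figure D4:**
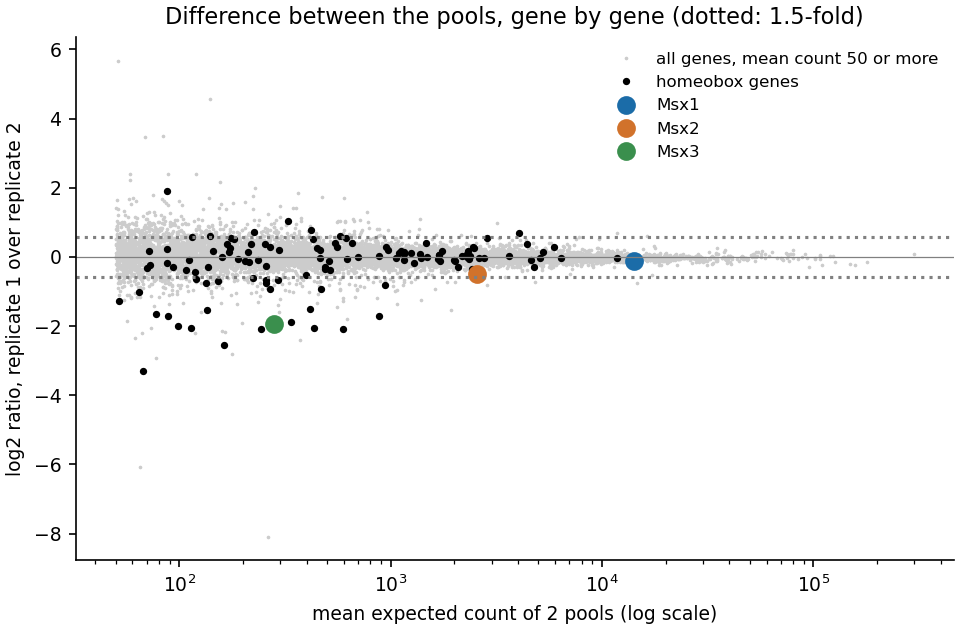
Log2 ratio of replicate 1 over replicate 2 against mean count on a log axis for tested genes (grey, mean count 50 or more), homeobox genes (black) and the Msx genes (colour), with 1.5-fold dotted. Msx3 lies at -1.93 among a set of homeobox genes below the lower line, Msx2 at -0.49 inside it and Msx1 at -0.13 near 0.

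With TMM scaling, homeobox genes past 1.5-fold lay mostly on the side of Msx3, which is itself counted among them. Several of these genes, Dbx1 and Hoxb1 among them, also stand in the neural tube and hindbrain lists below. Of 122 homeobox genes compared, 7 (5.74%) were at least 1.5-fold higher in replicate 1, where the share of all genes was 2.69%. Higher in replicate 2 were 26 (21.3%), against 1.95%. Under spike-in scaling, 18 (14.8%) were higher in replicate 1 and 19 (15.6%) in replicate 2, against 6.25% and 0.926% of all genes. Their median log2 ratio with TMM was -0.04, and that of all tested genes 0.00. Among the protein coding genes nearest to Msx3 in both pools, by distance on log2(TPM + 0.1), were Olig3 (2.91 and 8.61 TPM), Pou3f2 (2.88 and 9.30), Mamdc4 (1.56 and 8.10) and BC024139 (2.42 and 6.09). The genes nearest to Msx1 were Gnai2, Lsm2, Pa2g4, Ppp4c and Gpi1, and those nearest to Msx2 were Fhl1, Dnajc24, Kmt5a, Tmem63b and H2-Ke6. With 2 pools such nearness says only that both levels were alike.

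Most markers of the neural tube and hindbrain that could be compared were, like Msx3, higher in replicate 2. Their lists were written with earlier results of these data known, so the shares below are not an independent check. Of 8 markers of the roof plate and dorsal neural tube, 4 were detected, or 7 in replicate 2 alone, where 58.2% of protein coding genes were detected in both pools, and 7 had enough counts to compare. Their summed level was 16.8 TPM in replicate 1 and 26.0 in replicate 2. At least 1.5-fold higher in replicate 2 were 4 of the 7, against 1.95% of all genes compared. Olig3, of the dorsal progenitor domains, had 2.91 and 8.61 TPM, Atoh1 0.95 and 2.46, the roof plate gene Lmx1a 2.18 and 4.11, and Wnt3a 0.65 and 1.44. Wnt1 had 0.86 and 1.25 TPM and Rspo1 6.92 and 6.85. Pax7 went the other way, at 2.19 and 1.23 TPM. Gdf7, a defining gene of the roof plate, was close to 0 at 0.14 and 0.09 TPM, and no marker was at 0 in both pools.

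Progenitor genes of the neural tube at other levels showed the same direction in most cases. Of 10 compared, 0 were at least 1.5-fold higher in replicate 1 (2.69% of all genes) and 6 in replicate 2 (1.95% of all genes). The summed level of the list was 215 TPM in replicate 1 and 298 in replicate 2, most of it from Hes5 and Fabp7. Dbx1, of the intermediate domains, had 4.34 and 18.34 TPM, Dbx2 0.12 and 1.39, and the ventral gene Nkx6-1 0.83 and 3.47. Hes5, a Notch target, had 71.24 and 125.96 TPM, Pax6 10.99 and 18.63, and Nkx2-2 1.01 and 2.33. Fabp7 (105.56 and 107.45), Sox1 (0.88 and 0.93), Irx3 (17.23 and 17.83) and Olig2 (2.95 and 1.98) were not past 1.5-fold, and En2 was near 0 at 0.01 and 0.04.

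The hindbrain list had the lowest median ratio of the lists compared. Of 8 markers compared, 6 were at least 1.5-fold higher in replicate 2, against 1.95% of all genes, and their median log2 ratio was -1.59. The summed level was 22.1 TPM in replicate 1 and 52.4 in replicate 2. Hoxb1, which marks a hindbrain segment, had 1.03 and 5.91 TPM, Hoxb2 4.92 and 14.21, Hoxa2 7.73 and 14.58, Hoxd3 1.38 and 5.78, Hoxb3 0.58 and 2.79 and Hoxa3 0.56 and 1.82. Egr2 (0.76 and 0.94) was not past 1.5-fold. The neuron markers had a median log2 ratio of -0.06, and among them Tubb3, a neuronal tubulin gene, had 188.55 and 192.30 TPM. Msx3 lay within the range of these lists, and the part that a different amount of neural tube in the pools had in its ratio was not tested.

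Markers of facial mesenchyme and ectoderm did not share the direction of Msx3. Of 12 mesenchyme markers, all detected (58.2% of protein coding genes were), 3 were at least 1.5-fold higher in replicate 1 and 0 in replicate 2, against 2.69% and 1.95% of all genes. These were Alx1 (78.82 and 47.81 TPM), Osr2, a gene of the palate (12.13 and 4.42), and Six2 (13.17 and 8.45). Prrx1 had 108.03 and 106.50 TPM, Prrx2 74.45 and 79.50 and Twist2 46.71 and 44.93. The summed level of the list was 563 TPM in replicate 1 and 491 in replicate 2. Of 11 ectoderm markers, 10 detected, 1 was past 1.5-fold (4.64% of all genes in either direction), the keratin gene Krt5 (4.62 and 0.98 TPM), and the sums were 363.51 and 364.24. Msx1 and Msx2, with log2 ratios of -0.13 and -0.49, lay below the mesenchyme median of 0.17 and the ectoderm median of 0.05.

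**Figure D5:**
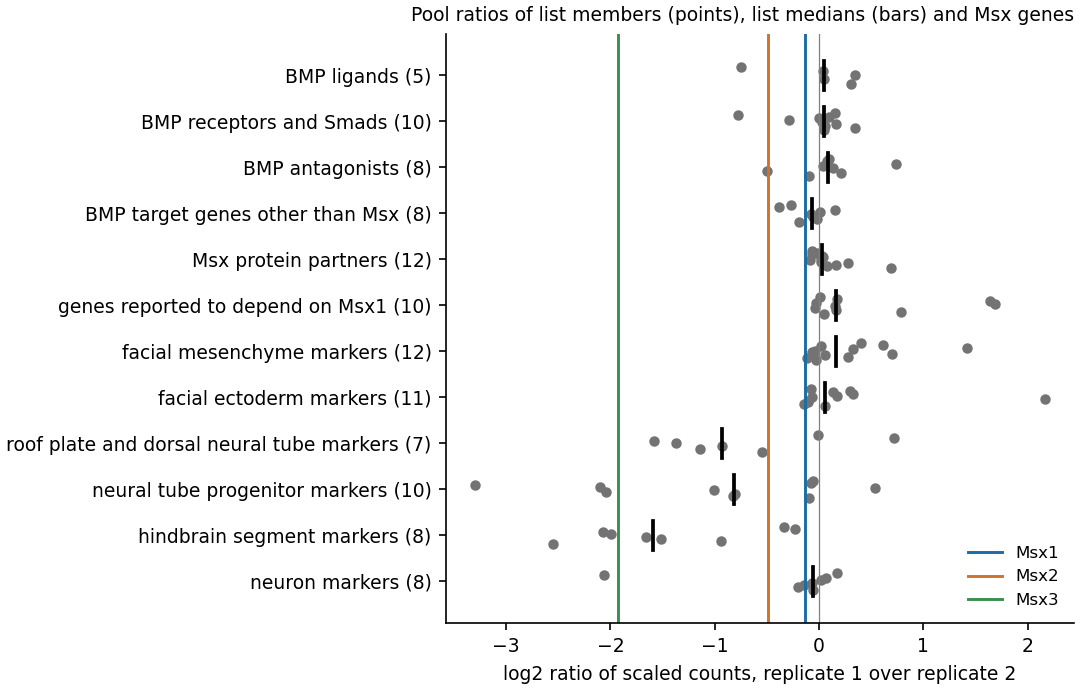
Log2 ratios of replicate 1 over replicate 2 for each list member with enough counts to compare (mean 50 or more; points, number in brackets), list medians (black bars) and the Msx genes (coloured lines). Msx3, at -1.93, falls among the neural tube and hindbrain genes, and BMP genes, Msx partners and facial markers centre near 0.

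The BMP pathway that acts upstream of Msx genes was detected at each step, with median levels in the 2 pools of 2.94 and 3.12 TPM for ligands and 23.54 and 26.56 TPM for other targets. The median over all protein coding genes was 3.57 TPM, and 58.2% of them were detected. Of 6 ligand genes, 5 were detected: Bmp4 had 20.97 TPM in replicate 1 and 19.19 in replicate 2, Bmp7 17.58 and 16.46, Bmp5 3.77 and 2.91, Gdf6 2.01 and 3.32 and Bmp2 2.10 and 1.66, while Bmp6 was under the threshold at 0.54 and 0.64. Among receptor and Smad genes 9 of 10 were detected, led by the receptors Acvr2b (53.8 ± 6.87 TPM) and Bmpr1a (43.3 ± 1.64) and the signal transducers Smad5 (36.1 ± 1.85) and Smad1 (32.9 ± 0.368). The lowest were Acvr1 (3.37 ± 0.339) and the undetected Smad9 (0.485 ± 0.177).

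Of 9 BMP antagonist genes 6 were detected, near the 58.2% of protein coding genes, and the median was 2.99 TPM. Twsg1, a modulator of BMP binding, stood at 71.6 ± 2.28 TPM and Sostdc1 at 19.5 ± 1.22, followed by Fst (4.79 ± 0.389) and Chrdl1 (3.38 ± 0.106). The antagonist gene Grem1 (0.58 ± 0.0707) was among the lowest, and Noggin (Nog) had 1.04 TPM in replicate 1 and 0.95 in replicate 2. All 8 other target genes of BMP signaling were detected. Id3 had 500.93 and 511.45 TPM, Id2 320.60 and 318.37, Id1 135.95 and 151.93 and Id4 28.86 and 29.78, and the inhibitory Smad6 (6.12 ± 0.106) and Smad7 (3.29 ± 0.262) were lowest. By mean TPM, Msx1 fell between Id2 and Id1, and Msx2 between Id1 and Id4.

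The BMP genes had ratios between the pools closer to 0 than that of Msx3. At least 1.5-fold higher in replicate 2 were 1 of 5 ligand genes, Gdf6 (1.67-fold), and 1 of 10 receptor and Smad genes, Smad9 (1.72-fold), against 1.95% of all genes. Of 8 antagonist genes 1, Bmper (1.66-fold), was higher in replicate 1, against 2.69% of all genes, and of 8 targets 0 were past the limit. The list medians ran from -0.06 for the targets to 0.09 for the antagonists. Under spike-in scaling Gdf6 and Smad9 were no longer past 1.5-fold.

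All 12 genes of proteins known to bind Msx1 or Msx2 were detected, where 58.2% of protein coding genes were. Their median was 30.0 TPM against 20.1 TPM over detected protein coding genes. Highest were the histone methyltransferase genes Ezh2 (128 ± 2.51 TPM) and Ehmt2 (84.0 ± 3.20), the homeobox gene Dlx5 (70.1 ± 10.4) and the SUMO ligase gene Pias2 (57.5 ± 1.55). Lowest were Spen (9.12 ± 1.63) and Pax9 (6.81 ± 2.18), which acts with Msx1 in tooth mesenchyme. Pax9 was the only one of the 12 past 1.5-fold, where 2.69% of all genes were higher in replicate 1, at 8.35 and 5.27 TPM, and its direction was the opposite of that of Msx3. Most of these genes act in many tissues.

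Genes reported in mice to depend on Msx1, in tooth mesenchyme or in muscle precursors, were mixed in level. Of 10, 7 were detected, where 58.2% of protein coding genes were. Highest were Ccnd1, a cyclin gene (159 ± 3.07 TPM), Sdc1, the syndecan gene (132 ± 0.474), the WNT effector Lef1 (47.8 ± 4.25) and Dlx2 (30.1 ± 3.22), which is also in the partner list. Lowest were the osteoblast regulator Runx2 (1.08 ± 0.905) and Fgf3 (0.945 ± 0.233). Of the 10, all compared, 3 were past 1.5-fold in scaled counts and higher in replicate 1, against 2.69% of all genes. Runx2 had 1.72 and 0.44 TPM and the muscle regulator Myod1 1.68 and 0.50. Fgf3 had 1.11 and 0.78 TPM, less than 1.5-fold apart on that scale, and was 1.72-fold apart in scaled counts. Each of the 3 was under 1 TPM in replicate 2.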

How the data were processed

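Expected counts and posterior mean counts per gene and transcript were deposited as estimated by the authors, without normalization. TPM values were deposited by the authors per file over all features, spike-in controls included. The interval bounds on TPM were deposited by the authors as scores of unstated level. Transcript shares were deposited by the authors as a percent of each gene. Per the deposited notes, the assembly was mm10 with GENCODE M4, and libraries were not pooled. No source used here names the aligner, the quantifier or the use of strand. Symbols and coordinates came from GENCODE M21 on GRCm38, by identifier. All 6 transcript identifiers matched M21 with their versions.

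Each table held 69691 features, of which 43346 were Ensembl genes. The 26248 short numeric entries and 96 spike-in controls stayed out of library sizes. The libraries differed beyond sampling noise (chi-square 8.94 per degree of freedom over 17546 genes), which does not by itself show separate samples. They count as 2 samples because the labels give them different numbers of embryos. Expected counts were rounded, and TMM factors and dispersions came from edgeR 4.0.16 over genes averaging 10 counts or more, with DESeq2 1.42.0 size factors as an alternative. Ratio and interval methods were tested on simulated data. The interval simulation gave every gene the same spread, so it did not cover genes whose own spread exceeds that of like genes. With 1 group no contrast exists, so no test was run.

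Members, lists and limits were chosen with earlier results of these data known. Genes were named by a fixed rule: all Msx transcripts, genes within 50000 bases, the 3 homeobox neighbours on each side, the 5 nearest genes by level, and of each list up to 4 highest and 2 lowest members and those at least 1.5-fold apart. Marker and homeobox genes named besides these were chosen after their values were seen. Some genes and sequences that this rule covers are not reported here.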

Additional observations from a re-analysis of the deposited data

How the results depend on the processing

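Among alternative values for the main results on Msx and homeobox genes, 61 stayed within the replicate spread, or within 1.5 times for counts, and 6 moved further. Part of the 61 could not have moved further. With 2 pools, leaving 1 out shifts a mean by less than its SD, and a wider set of like genes changes only the interval. TPM taken over named genes alone put Msx1 at 319.9 TPM. Spike-in totals gave log2 ratios of 0.0807 for Msx1, -0.28 for Msx2 and -1.71 for Msx3, with the median of all genes at 0.21. Past 1.5-fold were then 877 genes higher in replicate 1 and 130 in replicate 2, against 377 and 274 with TMM. The posterior mean share of Msx3-202 was 72.4%. A limit of 5 TPM left 65 homeobox genes and 2 Msx genes detected, Msx3 falling short through replicate 1. Leaving out a pool gave 281 to 303 TPM for Msx1, 34.9 to 48.2 for Msx2 and 2.17 to 8.25 for Msx3. The log2 differences then ran from 2.65 to 3.01 (Msx1 over Msx2), 5.18 to 6.95 (Msx1 over Msx3) and 2.53 to 3.95 (Msx2 over Msx3), and the detected homeobox genes numbered 120 to 121. Transcript shares then ran from 95.02% to 95.55% (Msx1-201), 98.9% to 99.1% (Msx2-201) and 73.1% to 76.65% (Msx3-202). The scaling of list counts was tried after seeing the data. A limit of 5 TPM left 2 BMP ligands, 2 antagonists, 1 roof plate, 4 neural tube and 1 hindbrain marker detected, and a limit of 0.5 TPM gave 7 roof plate and 8 hindbrain markers. With any count in both pools, 8, 11 and 11 markers of those neural lists were detected. No paired analysis was possible because there was 1 group. At 118 counts in replicate 1, Msx3 is limited by depth, mainly in the split between its transcripts.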
